A study of Mus musculus with 12 samples.

Results

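Cluster 9 of the 12W spleen library was a group of 280 cells among 6894 cells of that library and 20510 cells of the whole series. Its members were taken as the cell barcodes that the deposited cluster file of 12W spleen assigns to cluster 9, so the grouping itself was drawn from the expression of these cells. It made up 4.06% of the library (95% exact binomial interval 3.61 to 4.55%). The study sorted T cells positive for PD-1, CD44 and CD8 from NZB/W F1 mice, a hybrid strain in which females develop lupus nephritis, and sequenced their RNA in droplets from the 5′ end with a unique molecular identifier (UMI) on each captured molecule. Mice aged 12 weeks gave 1 group, the spleen (12W spleen), and mice aged 28 weeks gave the other two, named 28W spleen and 28W kidney after the organ. Each group was deposited as 4 numbered samples, and what the numbers stand for is not stated. Cluster levels were given pooled over the 4, with no map of cells to samples or mice. Each group was therefore treated as 1 library. In addition, 1 age field of the 28-week spleen reads 12 weeks, where the sample titles were followed. The mice were female according to the study's methods, and the labels name no transgene or treatment for any group. With 1 library per group and clusters drawn from the same cells, no difference between clusters or libraries could be tested, so levels are given with 95% exact Poisson intervals that cover counting error only.

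Neurogranin (Nrgn) binds calmodulin in the absence of calcium and is best known from neurons. Nfkb2 encodes p100, the precursor of the p52 subunit of the non-canonical NF-kB pathway, and its transcription is itself raised by NF-kB. Hivep3 is a zinc finger protein that binds kB-like DNA and is needed for the development of some innate-like T cells. Gadd45g is a stress-inducible protein of the Gadd45 family, and Eno3 is the muscle-type enolase of glycolysis. In CD8+ T cells, antigen receptor engagement induces Nr4a and Egr family genes, raises Myc and growth genes, and lowers the egress genes Klf2 and S1pr1.

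The files held 2050570 UMIs for cluster 9, or 7323 per cell, so that 3 UMIs correspond to 1.46 counts per 1000000 UMIs of the cluster (CPM). Mean UMIs per cell of the other 9 clusters ran from 928 in cluster 8 to 14345 in cluster 10. Mitochondrial genes took 1.06% of the UMIs of cluster 9, against 8.98% in cluster 8. Cluster 3 carried erythroid, B cell and neutrophil transcripts and cluster 10 the proliferation genes, so both enter any comparison with the rest of the library. Of the 280 barcodes, 2 also occurred in 28W spleen and 1 in 28W kidney.

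Of the genes that marked this cluster, Nfkb2 encodes an NF-kB component and the Hivep3 protein binds kB-like DNA. A kB-type motif, the letters GGG, any 2 bases, TT, any base and CC, was therefore searched for on both strands. The search covered the upstream DNA of the 5 label markers (Nrgn, Eno3, Hivep3, Nfkb2, Gadd45g) and of the 10 genes standing highest above the next cluster. These genes were picked by their levels in these same cells. The windows were the 250 bases before each RefSeq start site (GRCm38.p6), and 13 of 14 distinct genes had an entry, Adprh being the other. Matches occurred in 3 of these 13 genes, Nfkb2, Gadd45g and Nudt16l1, and in 4.71% of all 27025 genes with an entry. Overlapping matches and the reverse of a palindrome counted as separate matches within a gene. The EGR-type letters GCGNGGGCG occurred in 1 of the 13, Nfkb2, and in 5.33% of all genes. A match is a description of letters and not of binding. The Nfkb2 and Gadd45g stretches are shown because these markers had their highest level in cluster 9 with a gap to the next cluster, and Nrgn for contrast as the gene that names the cluster, with capitals marking the kB-type match. For Nfkb2 short stretches around the matches at 2 of its 3 start sites are given, since annotated exons cover much of these windows, and the Nrgn stretch is the part of its window outside annotated exons.
Nfkb2, first start site (chr19:46304688-46304717, plus strand): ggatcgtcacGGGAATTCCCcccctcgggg
Nfkb2, first start site, nearer the start (chr19:46304707-46304736, plus strand): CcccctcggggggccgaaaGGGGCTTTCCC
Nfkb2, most downstream start site (chr19:46305695-46305724, plus strand): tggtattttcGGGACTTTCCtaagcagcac
Gadd45g (chr13:51846425-51846674, plus strand): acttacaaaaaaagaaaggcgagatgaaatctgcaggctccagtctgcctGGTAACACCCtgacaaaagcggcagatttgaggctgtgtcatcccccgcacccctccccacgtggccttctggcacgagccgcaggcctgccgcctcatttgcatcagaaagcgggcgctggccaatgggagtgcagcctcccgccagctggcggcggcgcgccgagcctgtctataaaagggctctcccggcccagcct
Nrgn (chr9:37552905-37552995, minus strand): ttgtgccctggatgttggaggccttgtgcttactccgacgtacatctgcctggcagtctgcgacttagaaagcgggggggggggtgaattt
The first Nfkb2 window held the palindrome at 39 bases before the start site and a pair of overlapping matches ending at the base before it. The Gadd45g match lay on the opposite strand, and the Nrgn, Eno3 and Hivep3 windows held none.

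The 5 label markers did not share 1 pattern over the 10 clusters. Since they gave the cluster its name, their levels describe it and are not a test. Nfkb2 (chromosome 19, 46304320 to 46312385, GRCm38) was at 54.1 CPM in cluster 9 (interval 44.5 to 65.2). Its levels in clusters 1 to 8 were 16.8, 23.5, 22.6, 15.3, 19.0, 22.5, 34.5 and 24.6 CPM, and 11.6 CPM in cluster 10. The next highest, cluster 7, had an upper limit of 40.0 CPM, below the lower limit of cluster 9, while cluster 8 rested on 7 UMIs and reached an upper limit of 50.6.

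Gadd45g (chromosome 13) likewise stood at 25.8 CPM in cluster 9 (19.4 to 33.8) and at 10.8, 6.19, 8.43, 6.77, 12.1, 3.22, 8.02 and 3.51 CPM in clusters 1 to 8, with 6.64 CPM in cluster 10. Cluster 5 was next, with an upper limit of 16.0 CPM, and cluster 8 rested on 1 UMI with an upper limit of 19.6 CPM. Nrgn (chromosome 9) was at 47.8 CPM in cluster 9 (38.8 to 58.2), and the cycling cluster 10 was close to it at 41.5 CPM (34.5 to 49.4). In clusters 1 to 7 Nrgn was at 13.7, 4.39, 10.7, 1.65, 9.36, 5.90 and 19.5 CPM, and no UMI was seen in cluster 8. A count of 0, taken to allow 3 counts, allows up to 10.5 CPM there, and the exact interval reaches 13.0 CPM. Nrgn therefore separated clusters 9 and 10 from the others, but not from each other beyond counting error.

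Eno3 (chromosome 11) and Hivep3 (chromosome 4) were shared with cluster 7 instead. Eno3 was at 58.5 CPM in cluster 9 (48.5 to 70.0) and 61.6 CPM in cluster 7 (54.9 to 68.8), against 3.51 to 19.9 CPM in the other 8 clusters. Hivep3 was at 56.1 CPM in cluster 9 (46.3 to 67.3), 76.6 CPM in cluster 7 (69.1 to 84.7) and 56.2 CPM on 16 UMIs in cluster 8, and the other 7 clusters had between 6.21 and 12.8 CPM.

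**Figure D1:**
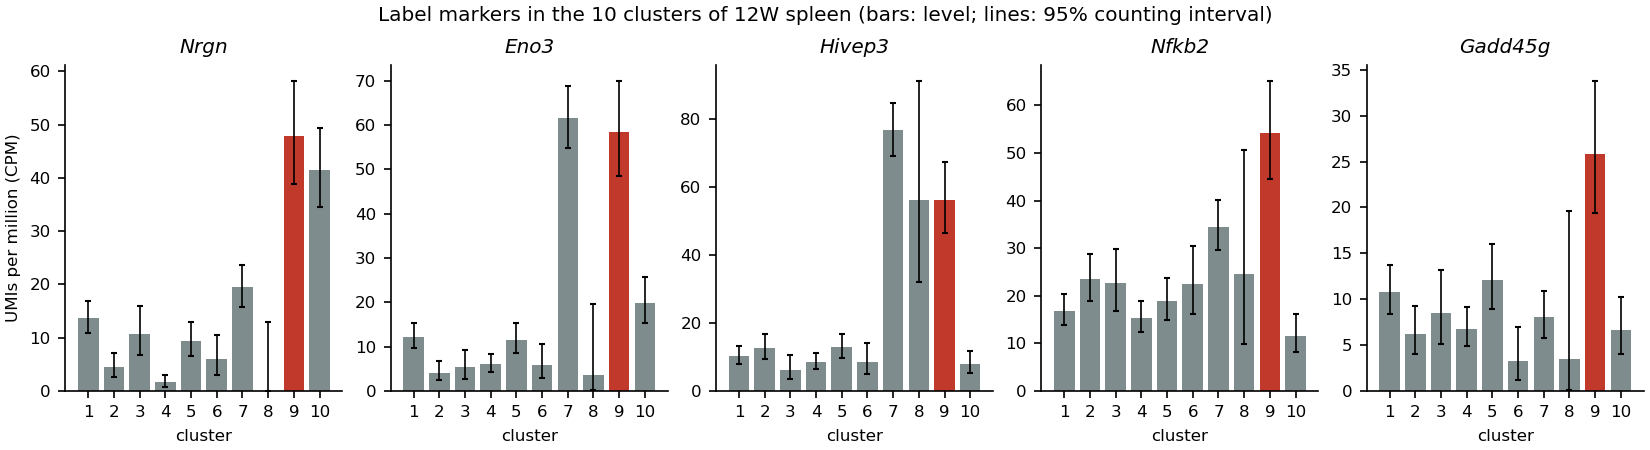
Levels of the 5 label markers in the 10 clusters of 12W spleen, in CPM, with cluster 9 in red and lines for 95% exact Poisson intervals. Nfkb2 and Gadd45g were highest in cluster 9 with a gap to the next best measured cluster, Nrgn was shared with cluster 10, and Eno3 and Hivep3 were shared with cluster 7.

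Over all genes, cluster 9 differed little in size of change from the rest of the library. Levels were compared as log2 of cluster 9 over the other 9 clusters summed, after adding 10 CPM to both, for the 2872 genes with at least 50 CPM on either side. Only 5 genes (0.174%) were at least 2-fold higher and 46 (1.6%) at least 2-fold lower, with a median log2 ratio of 0.05 over all genes compared. The 5 were Eno3 (log2 ratio 1.32), Hivep3 (1.12), the tRNA methyltransferase Mettl1 (1.07), Nfkb2 (1.07) and the nucleoside diphosphate kinase Nme1 (1.06). Eno3, Hivep3 and Nfkb2 are label markers that gave the cluster its name. These 3 and Mettl1 reached the minimum through cluster 9 and not through the rest. Of the label markers, Nrgn (log2 ratio 1.36, 12.5 CPM in the rest) and Gadd45g (0.98, 8.20 CPM in the rest) lay under the 50 CPM minimum and were not among the genes counted. The small number higher depended on cluster 7: without it in the comparison, chosen after the values were seen, 109 genes were at least 2-fold higher, and 77 at least 2-fold lower.

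The 25 genes with the highest ratios were led by cluster 7 more often than by cluster 9. Cluster 7 had the highest level of 18 of them, cluster 9 of 4 (Nfkb2, Pdcd1, Ptpn6 and Nab2), cluster 8 of 3, and no other cluster exceeded cluster 9 in any of the 25. Nme1 was at 383 CPM in cluster 9 (357 to 411), 179 in the rest and 547 in cluster 7. Fbl, the methyltransferase of box C/D nucleolar particles, was at 497 CPM against 252 in the rest and 799 in cluster 7. Apex1, a DNA base excision repair nuclease, was at 146 CPM against 68.5 and 283, and Itm2a, a membrane protein of activated T cells and thymocytes, at 280 CPM against 138 and 520.

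Further genes of the 25 had lower ratios, again with cluster 7 above cluster 9, and they included the 3 with the highest level in cluster 8. They included the one-carbon enzymes Mthfd1 (0.82) and Shmt2 (0.78), the ribosome assembly factors Nop16 (0.77), Tsr1 (0.80), Rcl1 (0.79) and Heatr1 (0.77), the translation factor Eif5a (0.79), the cytokine Mif (0.80) and the ATP synthase subunit Atp5g1 (0.81), all as log2 ratios to the rest. The arginine methyltransferase Prmt7 (0.85), the inositol synthase Isyna1 (0.76), the phosphatase inhibitor Ppp1r14b (0.77), Nr4a2 (0.83) and the receptor Cd160 (0.83) completed the set with those named above. Against the mean of the other 9 cluster levels, Nr4a2 fell to 0.25, Heatr1 to 0.57 and Prmt7 to 0.69, while the others of this paragraph rose.

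Cluster 9 had the highest level of all 10 clusters for 63 of the 2872 genes (2.19%), and of 9 clusters for 101 (3.52%) when the shallow cluster 8 was left out, a step added after the values were seen. For 3 genes (0.104%), Nfkb2, Ptpn6 and Trp53, the intervals of cluster 9 and of the next cluster did not meet. Ptpn6, which encodes the phosphatase SHP-1 that dampens antigen receptor signals, was at 373 CPM in cluster 9 (347 to 400) and at 294 CPM in cluster 5 (278 to 312). Trp53, which encodes p53, was at 214 CPM (195 to 235) against 171 CPM in cluster 7 (160 to 183). The other genes with the largest ratio to the next cluster were Nab2, a corepressor of Egr proteins (74.6 against 56.7 CPM in cluster 5), Rgcc, a regulator of the cell cycle (157 against 133 CPM in cluster 5), Fmc1 (104 against 81.0 CPM in cluster 10), Nudt16l1, Osgep, Adprh and Cpsf3, and their intervals met those of the next cluster.

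Among the genes under the minimum, the NF-kB regulator Bcl3 was at 26.3 CPM (19.8 to 34.4) with cluster 5 next at 20.9 CPM. The transcriptional repressor Bcl6 was at 23.9 CPM (17.7 to 31.6) with cluster 1 next at 19.5 CPM, and the TNF receptor Tnfrsf1b was at 21.9 CPM against 21.1 CPM in cluster 8. These differences were within counting error.

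The low end held mostly transcripts that other clusters carried. Of the 12 genes with the lowest ratios, the highest level was in cluster 10 for 6 and in cluster 3 for 4. Those of cluster 3 were the haemoglobins Hbb-bs, Hba-a1 and Hbb-bt and the MHC class II chain Cd74, and those of cluster 10 the cycling genes Pclaf, Birc5, Hist1h2ap, Ube2c, Top2a and Rrm2. Hbb-bs was at 11.2 CPM in cluster 9 against 1229 in the rest, and Top2a at 5.85 against 56.2. The calcium-binding protein S100a6 was different, at 15.6 CPM in cluster 9 (10.7 to 22.0) against 129 in the rest, 70.0 in cluster 5 and 7.22 in cluster 7, with 730 in cluster 2. Cdc25b, a phosphatase that drives entry into mitosis, was at 12.7 CPM against 64.6 in the rest. When clusters 3, 8 and 10 were left out, 25 genes were at least 2-fold lower and 21 of them were among the 46.

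Cluster 5 was the cluster most like cluster 9, with Pearson's r of 0.95 between log2 levels over 2872 genes, a description in which the genes share 1 library. Cluster 6 followed at 0.94 and cluster 10 at 0.92, and cluster 7 was at 0.91. Against cluster 5, 68 genes (2.37%) were at least 2-fold higher in cluster 9 and 29 (1.01%) at least 2-fold lower. Against cluster 7, the figures were 244 (8.5%) higher and 107 (3.73%) lower.

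The levels of cluster 9 lay between those of clusters 5 and 7 for almost every gene that set these 2 clusters apart. Of 880 genes with a 2-fold or larger difference between clusters 5 and 7, 868 (98.6%) had a level in cluster 9 that was between both. The same count gave 74.8% for cluster 10, 44.1% for cluster 6, and 21.3 to 37.0% for clusters 1, 2, 3, 4 and 8. On the log2 scale cluster 9 stood at a median of 0.39 of the way from cluster 5 to cluster 7, at 0.45 for the 440 genes higher in cluster 7 and at 0.31 for the 440 genes lower there. Clusters 5 and 7 were picked for this description after their values were seen. Mean UMIs per cell ran in the same order, at 5654 in cluster 5, 7323 in cluster 9 and 13406 in cluster 7, and the part of depth or of mixed cells in this arrangement was not tested.

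Several chemokine and activation genes rose from cluster 5 over cluster 9 to cluster 7. Xcl1, a chemokine that attracts cross-presenting dendritic cells, was at 54.7 CPM in cluster 5, 314 in cluster 9 and 2088 in cluster 7. Tnfrsf9, the costimulatory receptor 4-1BB, was at 27.6, 166 and 523 CPM in the same order, and Ccl4, a chemokine of activated CD8+ T cells, at 10.3, 68.8 and 490 CPM. Srm, the spermidine synthase, was at 62.1, 231 and 678 CPM. Myc, the growth-promoting transcription factor, was at 113, 247 and 541 CPM. Genes of quiescent, recirculating T cells ran in the opposite order. Klf2, a transcription factor that maintains egress receptors, was at 834, 378 and 59.8 CPM in clusters 5, 9 and 7. S1pr1, the receptor for exit from lymphoid tissue, was at 155, 60.5 and 7.02 CPM, and Il7r, the survival cytokine receptor, at 191, 86.3 and 13.2 CPM.

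Few genes broke the arrangement. Of the 880, 12 lay beyond cluster 5 and none beyond cluster 7. Ccl5, a chemokine of effector cells, was the farthest out, at 258 CPM in cluster 5, 426 in cluster 9 (398 to 455) and 83.0 in cluster 7. The cycling genes Pclaf and Birc5 were higher in cluster 7 (46.9 and 24.1 CPM) but as low in cluster 9 (3.41 and 0.98 CPM) as in cluster 5 (3.45 and 2.22 CPM). Id2, a regulator of effector differentiation, was nearly at its cluster 5 level, with 213, 196 and 39.1 CPM.

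**Figure D2:**
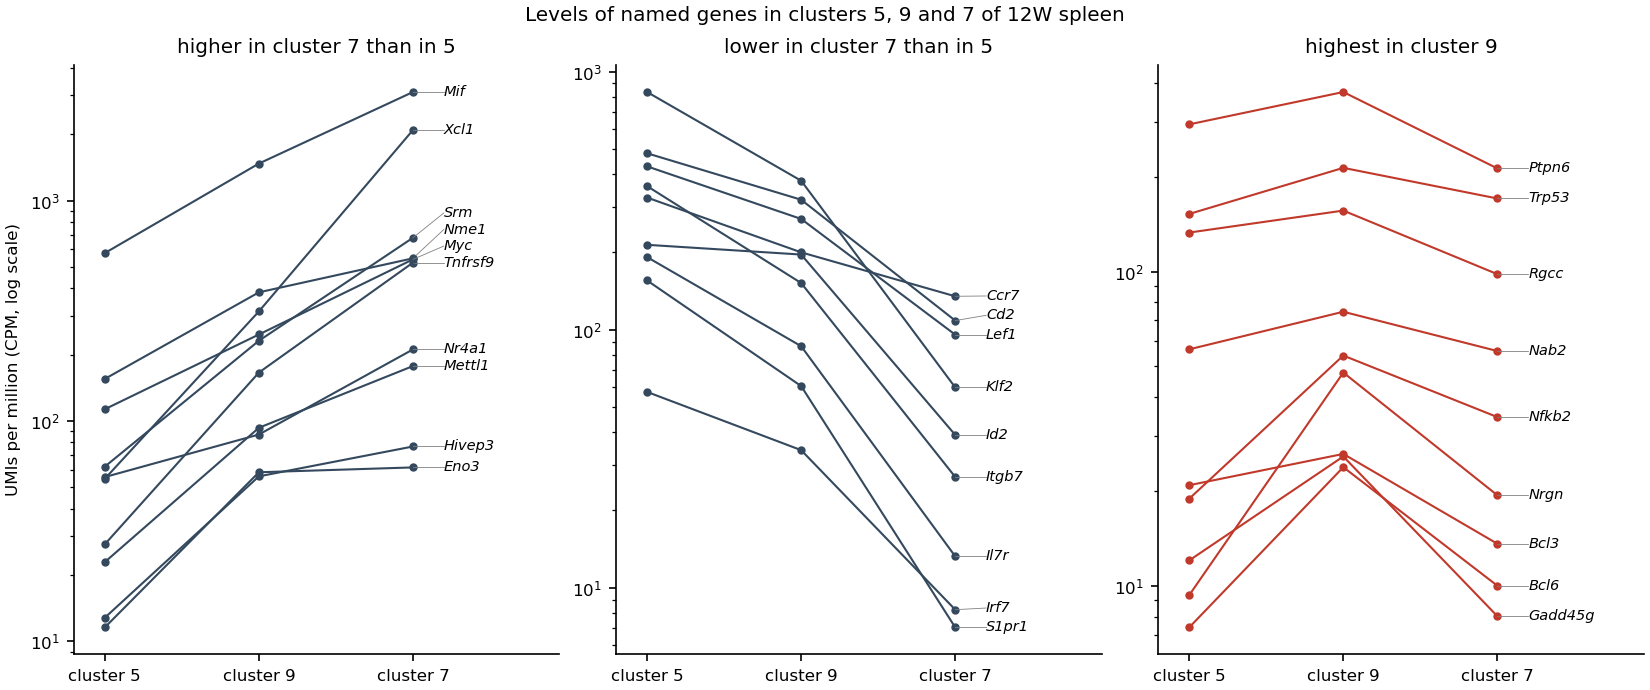
Levels of named genes in clusters 5, 9 and 7 of 12W spleen in CPM on a log scale, each line 1 gene. In the left and middle panels cluster 9 lies between the other 2 clusters, as for Xcl1 (54.7, 314 and 2088 CPM), and in the right panel it lies above both, as for Nfkb2 (19.0, 54.1 and 34.5 CPM).

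Members of the NF-kB system lay on both sides of the rest of the library, few of them past 2-fold. Of 48 genes in the 4 lists of subunits, inhibitors, activating kinases and targets, 21 reached the minimum, of which 1 was at least 2-fold higher, 1 at least 2-fold lower, and the median log2 ratio was 0.04, against 0.05 over all genes compared. By list, the median was 0.58 over 3 subunits, 0.13 over 4 inhibitors, -0.16 over 5 kinases and -0.37 over 9 targets. Over all members, with those under the minimum, the medians were 0.10, 0.24, -0.12 and 0.01 in the same order. Of the 3 subunits, Nfkb2, itself a label marker, and Relb reached the minimum through cluster 9 and not through the rest. Among the subunits Relb, the partner of p52, was at 59.0 CPM (49.0 to 70.5) against 36.2 in the rest, Rela at 77.1 against 71.2, Nfkb1 at 42.4 against 43.7 and Rel at 35.1 against 35.5 CPM. The 2 subunits of the non-canonical pathway had the highest ratios to the rest, 1.07 and 0.58, and the 3 others lay between -0.03 and 0.10. Relb was at 50.9 CPM in cluster 7, inside its interval for cluster 9. Of the 3 subunits at the minimum, only 1, Nfkb2, had its highest level in cluster 9. Of the inhibitors, Nfkbid (0.60) and Bcl3 (0.52) had the highest log2 ratios, both under the minimum, and Nfkbia, which encodes IkB-alpha, was at 272 CPM against 232. The kinase Map3k14 (NIK), which triggers the processing of p100, was at 19.5 CPM against 20.7, and Traf1 at 91.2 against 125.

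Target genes split in both directions. The survival genes Bcl2a1b (120 against 83.7 CPM) and Bcl2a1d (53.2 against 37.7 CPM) and the mitochondrial dismutase Sod2 (96.1 against 70.7 CPM) were above the rest. Bcl2a1 genes are near-identical copies, so UMIs may have been split among them. The homing receptor Ccr7 (199 against 316 CPM), Irf1 (65.4 against 103 CPM) and Psmb9 (237 against 309 CPM) were below it, and Ccl5 was the 1 target at least 2-fold lower, at 426 against 1383 CPM.

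In the related families, Hivep3 and Gadd45g were not matched by their relatives. Hivep1 was at 13.2 CPM against 10.3 in the rest and Hivep2 at 25.4 against 22.7 CPM. Gadd45b was at 48.8 CPM against 32.6, with 86.0 in cluster 7, and Gadd45a at 1.46 CPM on 3 UMIs against 6.24 CPM. Nrgn stood apart from the calmodulin and calcium signal list in the same way, where 13 of 25 genes reached the minimum with a median log2 ratio of -0.03 and none at 2-fold. Camk4 was at 65.8 CPM against 82.9 and the store-operated calcium sensor Stim1 at 31.2 against 56.8 CPM, while Nfatc1, the calcium-responsive transcription factor, was at 140 CPM (124 to 157) against 87.5.

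None of the antigen receptor response genes was past 2-fold. The median log2 ratio was 0.33 over all 22 genes and 0.60 over the 11 at the minimum, of which some, such as Nr4a2 and Nab2, reached it through cluster 9 and not through the rest. Those 11 were above the rest, as were 1623 of the 2872 genes compared. Nr4a2 was at 53.6 CPM (44.1 to 64.7) against 25.7, Nab2 at 74.6 against 39.8, Myc at 247 against 147 and Cd5, a negative regulator set by receptor signal strength, at 299 (276 to 324) against 195 CPM. Egr1 was at 85.8 CPM against 58.2, and Cd69, an early activation marker, at 148 against 148 CPM. Against clusters 5 and 7 the median log2 ratios were 0.34 and 0.36, and 6 of the 11 were above cluster 7. The 22 genes summed to 1904 CPM in cluster 9, 2612 in cluster 7, 3591 in the shallow cluster 8 and 821 to 1464 in the others. Of 13 genes known from strong receptor signals in the thymus, 12 were in the table, with a median of 0.59, and 7 reached the minimum, Hivep3 in cluster 9 but not in the rest. Examples were Ikzf2 (162 against 105 CPM), Id3 (360 against 226 CPM) and Tox (109 against 81.9 CPM). Cluster 1 was close to cluster 9 here, with Id3 at 355 CPM, within counting error. The 12 genes summed to 1331 CPM in cluster 9, 1251 in cluster 1, 2106 in the shallow cluster 8 and 388 to 989 in the others. This list shares Nrgn, Hivep3 and Gadd45g with the label markers.

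In glycolysis, Eno3 was the exception in size. Of 19 genes 11 reached the minimum, with a median log2 ratio of 0.37 against 0.25 over all 19, and Eno3 alone was past 2-fold. Eno1, the enolase of most tissues, was at 854 CPM against 676. Gapdh was at 1956 against 1510, Pgk1 at 305 against 212 and Ldha at 889.5 against 737 CPM. Against cluster 7 the median of the list was -0.60, and 1 of the 11 was above it. Of the heat shock list, 6 of 8 genes reached the minimum with a median of 0.43, led by Hsp90ab1 at 4041 against 2504 CPM.

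Receptors and effector genes differed from each other. Pdcd1, which encodes PD-1 and was part of the sort of every library, was at 69.7 CPM (58.8 to 82.1) against 34.5 in the rest. It was at 54.3 CPM in cluster 7 and 66.7 on few UMIs in cluster 8. Cluster 1 had 55.8 CPM (50.1 to 61.9), an interval that met that of cluster 9. Cd160 was at 120 CPM against 63.2, and Tigit at 30.7 (23.6 to 39.3) against 16.0. Lag3 was at 35.6 CPM against 33.4, Ctla4 at 16.6 against 33.6, and no UMI of Havcr2 (TIM-3) was seen, which allows up to 1.46 CPM. Among effector molecules, Gzma was at 13.2 CPM against 53.7, Gzmb at 0.98 on 2 UMIs against 9.30, Prf1 at 33.2 against 42.0 and Ifng at 5.36 against 10.3 CPM. The 7 genes of the cytotoxic list were carried mainly by cluster 2, where they summed to 9602 CPM, against 864 in cluster 9, 876 in cluster 5 and 454 in cluster 7. The effector regulator Tbx21 was at 8.29 CPM (4.83 to 13.3) against 19.9, and Eomes at 111 against 77.2, with 177 CPM in cluster 7.

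The homing and egress list was below the rest, with 7 of its 8 genes at the minimum negative, 2 at least 2-fold lower (1.6% of all genes compared) and a median of -0.85. Its median was -0.71 to cluster 5 and 1.69 to cluster 7. Besides Klf2 and S1pr1, the integrin Itgb7 was at 152 CPM against 311 and Klf3 at 61.5 against 125. A CD29 list held Itgb1, Il7r and Klf2, which the study named on these samples and which are no independent evidence, and S1pr1 and S100a4, which were added here. Of its 5 genes 4 reached the minimum and all 4 were at least 2-fold lower, against 1.6% of all genes compared: Itgb1 (50.2 against 127 CPM), Il7r (86.3 against 221 CPM), Klf2 (378 against 769 CPM) and S1pr1 (60.5 against 141 CPM). Klf2 and S1pr1 are the same 2 genes counted as lower in the homing and egress list. Cluster 7 was lower still, as the median of the list was -1.09 to cluster 5 and 2.05 to cluster 7. The 5 genes summed to 582 CPM in cluster 9, 136 in cluster 7 and 2705 in cluster 2. Itgb1 had its lowest level of the 10 clusters here, as did 18 of the 2872 genes (0.627%), but cluster 7 was close at 54.5 CPM. The interferon receptor Ifngr1 was at 66.3 CPM against 176, and the chemokine receptor Cxcr3 at 31.2 against 78.8. The migration list, with Xcl1, Mif and Srm named by the study on these samples and Nme1 (also among the 5 genes at least 2-fold higher) and Npm1 added here, had a median of 0.72 to the rest, 1.33 to cluster 5 and -1.10 to cluster 7. A memory list of 5 genes, also begun from genes of the study, had a median of -0.42 to the rest, -0.66 to cluster 5 and 1.16 to cluster 7. The proliferation list had a median of -1.72 to the rest over 6 genes, of which 4 were at least 2-fold lower (1.6% of all genes compared), but cluster 10 carried these genes. To cluster 5 its median was 0.03 and to cluster 7 -0.83. Its 7 genes summed to 1506 CPM in cluster 9, of which Tubb5 made up 1226. The sum was 1997 CPM in cluster 7, 8966 in cluster 10 and 884 to 1292 CPM in clusters 1 to 6 and 8. Immediate-early genes had a median of -0.19 over 8 genes, with Jun at 96.6 CPM against 143 and Fos at 110 against 124.

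**Figure D3:**
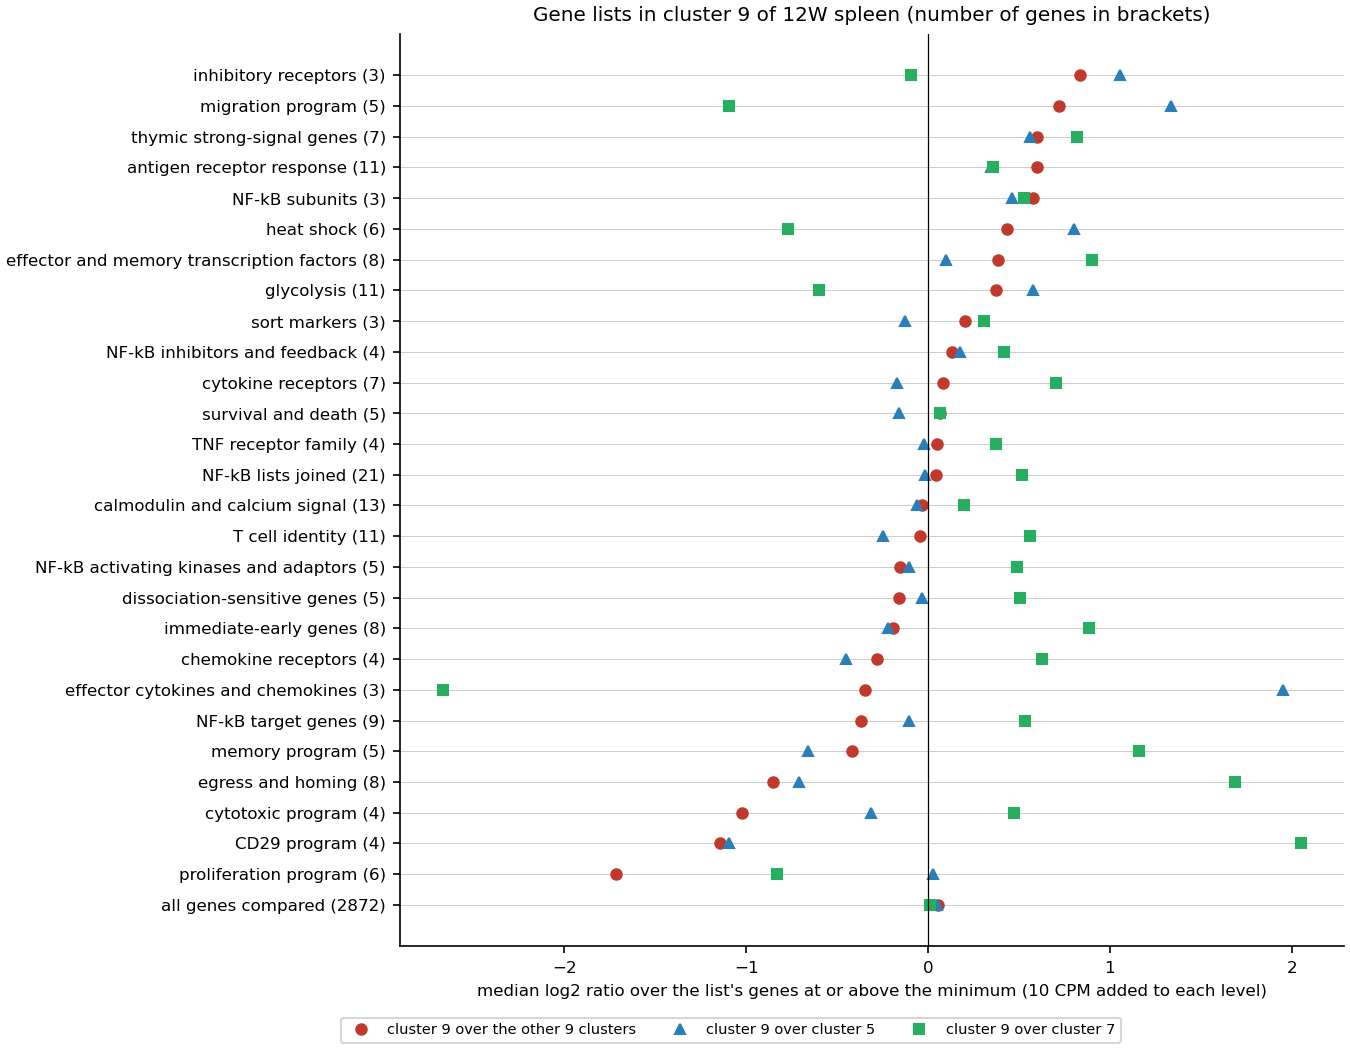
Median log2 ratio of cluster 9 over the other 9 clusters (circles), cluster 5 (triangles) and cluster 7 (squares) for gene lists with at least 3 genes at the 50 CPM minimum, with the number of genes in brackets. The NF-kB lists joined (0.04) have a median near that of all genes compared (0.05). They run from 0.58 for subunits to -0.37 for targets, where the medians over all members, not drawn, were 0.10 and 0.01. The antigen receptor response lies at 0.60 (0.33 over all members), and glycolysis and the migration list lie above cluster 5 and below cluster 7.

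The cells carried the transcripts of the sort and of alpha-beta T cells. Cd8a was at 676 CPM, Cd8b1 at 590, Cd3e at 1115 and Trac at 328, while Cd44 was at 21.9 CPM against 32.0 in the rest. Markers of other cells were low: the summed level of 9 myeloid and dendritic markers was 4.88 CPM, that of 5 neutrophil markers 0.49, of 3 CD4 and regulatory markers 4.39, of 6 gamma-delta markers 37.1 and of 5 erythroid markers 21.5 CPM, with no UMI of Cd4 or Lyz2. The 8 B cell markers summed to 172 CPM, of which Ighm made up 110, and ranged from 108 to 314 CPM in the other clusters apart from cluster 3.

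Receptor segments were as varied as in the other clusters. Of 2132 Trav UMIs, the effective number of segments (the inverse of the summed squared shares) was 26.9, within the 25.9 to 34.8 of the other 9 clusters, and of 3586 Trbv UMIs it was 8.14, within 7.12 to 9.19. Trbv31 took 11.5% of the Trbv UMIs of cluster 9 (95% exact binomial interval 10.5 to 12.6%) and 3.24 to 8.21% in the others. Trbv13-2 took 17.4% (16.2 to 18.7%), against 17.9 to 27.3% in the other 9 clusters, and its interval met that of cluster 3 (16.7 to 19.0%). Trbv13-1 took 21.0% against 21.0% in the rest, Trbv1 13.4%, and Trav3-3, the leading alpha segment, 12.9% against 10.0%. Cells of a clone share their segments, so the true uncertainty is larger than these intervals, and segment names follow the reference genome rather than NZB or NZW alleles.

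**Figure D4:**
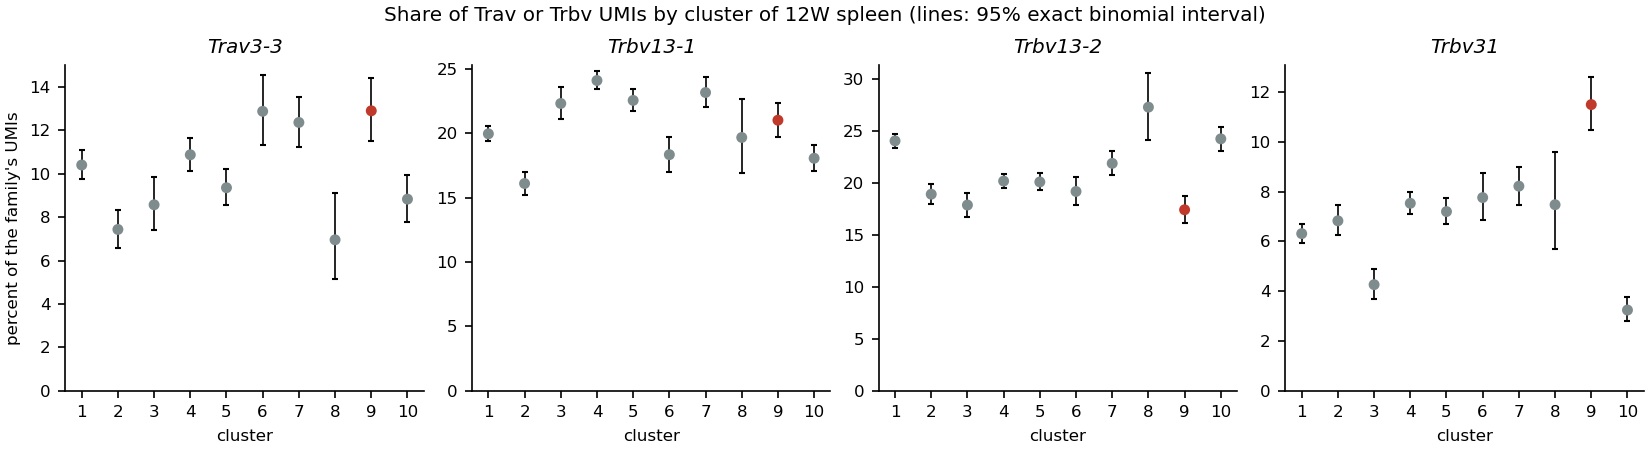
Share of Trav or Trbv UMIs taken by 4 segments in each cluster of 12W spleen, with cluster 9 in red and lines for 95% exact binomial intervals. Trbv31 reached 11.5% in cluster 9 and at most 8.21% elsewhere, while Trbv13-1 and Trav3-3 in cluster 9 lay inside the range of the other clusters or at its edge.

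No cluster of the 28-week libraries carried the 5 label markers together. Over 23 clusters and 5 genes, 11 of 115 levels reached that of cluster 9, and 8 of the 11 were Gadd45g. Nrgn reached at most 14.5 CPM in 28W spleen (cluster 10, on 10 UMIs, 6.93 to 26.6) and 10.6 CPM in 28W kidney (cluster 12, 5.29 to 19.0), both below the lower limit of 38.8 in cluster 9. Hivep3 reached at most 31.3 CPM in 28W spleen (cluster 6) and 24.8 CPM in kidney (cluster 2). Nfkb2 reached 60.7 CPM in cluster 10 of 28W spleen on 42 UMIs (43.8 to 82.1), and at most 49.1 CPM in kidney. Eno3 reached 46.3 and 68.4 CPM in these organs, and Gadd45g 33.9 and 98.4 CPM. Age and library changed together between the spleens, and organ changed as well for the kidney, so these cannot be told apart.

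Relative to the mean of each library's clusters, the profile of cluster 9 was most like cluster 6 of 28W spleen, with Pearson's r of 0.71 over 2872 genes, a description of clusters that share a library each. Cluster 7 of 12W spleen was closer to that cluster, at 0.84, while cluster 5 was at -0.13. Cluster 6 of 28W spleen had Xcl1 at 584 CPM and Tnfrsf9 at 153 CPM, near or above the 314 and 166 CPM of cluster 9, but Nrgn at 11.9 CPM (9.43 to 14.9) and Eno3 at 19.7 CPM (16.4 to 23.4). In 28W kidney no r exceeded 0.27.

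**Figure D5:**
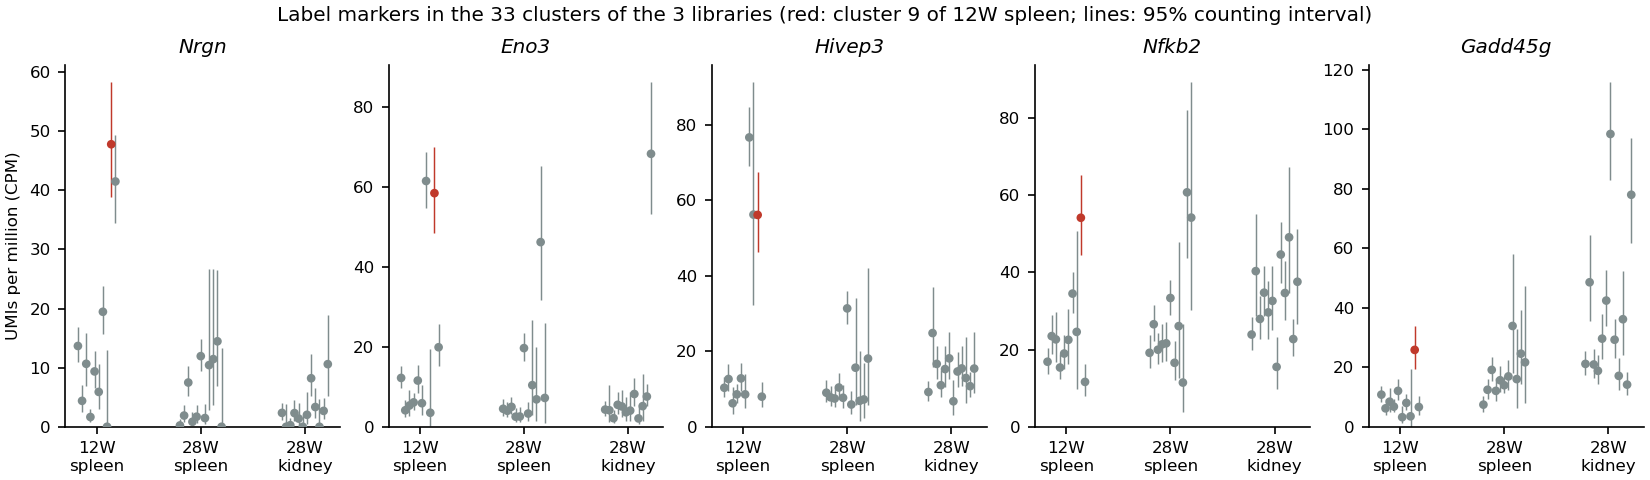
Levels of the 5 label markers in all 33 clusters of the 3 libraries in CPM, each point 1 cluster and lines 95% exact Poisson intervals, with cluster 9 of 12W spleen in red. The Nrgn level of 47.8 CPM lies above every cluster of the 28-week libraries, whereas 8 of their clusters reached its Gadd45g level of 25.8 CPM.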

How the data were processed

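The authors deposited, for each library, cell clusters and a table of the mean UMI count per gene and cluster, a score normalized by cell size factors. The submitters' processing notes name Cell Ranger 2.1.1, R 3.6.1 and GRCm38. Each deposited column was made of whole multiples of 1 step (tolerance 0.001), from which UMIs were recovered for 100% of values and expressed per 1000000 UMIs of the cluster (CPM). Doublets could not be called from cluster means, and whether they were removed is not given in the sources used here. The authors' fold change and adjusted p columns were not used. Cluster 9 was compared with the other 9 clusters summed, with 10 CPM added, for genes at 50 CPM or more on either side. Named genes were the 5 label markers, the 25 highest and 12 lowest ratios and the 10 highest ratios to the next cluster, receptor, mitochondrial and predicted genes ranked apart, the most used V segments, and list members. Members and lists were chosen with earlier results of these data known. Intervals are exact at 95%, and a count of 0 allows 3 counts. Pseudocount, minimum, scaling, cluster weights and left-out clusters were varied. The procedure was tested on simulated data. Python 3.11.15, numpy 2.4.6, scipy 1.17.1 and pandas 2.3.3 were used, and gene positions came from GENCODE. Results for 3 genes are not reported here.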

Additional observations from a re-analysis of the deposited data

How the results depend on the processing

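All 298 log2 ratios of the 37 highest and lowest genes recomputed under the alternatives kept their sign, 171 of them inside the counting interval of the value in the report. These genes were picked as the extremes of the same counts, so a kept sign is no test of them. Genes under the minimum of an alternative gave no value there. The 5 genes at least 2-fold higher became 10 with a pseudocount of 1 CPM, 0 with 50 CPM, 1 with a minimum of 200 CPM, 10 against the mean of the other 9 cluster levels and 109 without cluster 7. The 46 at least 2-fold lower became 18 with a pseudocount of 50 CPM, 90 and 14 with a minimum of 10 and 200 CPM, 119 against the mean of cluster levels, 25 without clusters 3, 8 and 10 and 77 without cluster 7. Fewer genes were compared at 200 CPM (710), and for the other shifts the cause was not tested. The median of the NF-kB lists was 0.04 and became -0.50 over the 4 genes left at 200 CPM, -0.26 against the mean of cluster levels and -0.11 without cluster 7. The 63 genes highest in cluster 9 became 101 without cluster 8, and the 868 genes between clusters 5 and 7 became 326 of 327 at 3-fold. The share of cells was 5.27% when clusters 3, 8 and 10 were left out of the total. Levels of the label markers in the other libraries that reached cluster 9 went from 11 to 9 when receptor, mitochondrial and ribosomal protein genes were left out of the UMI total. The alternatives without clusters 7 or 8 and those between clusters 5 and 7 were chosen after seeing the data. No paired analysis was possible because the cluster levels of each group were pooled, with no map of cells to the numbered samples. With 1 library per group, intervals cover counting error only, and genes near the 50 CPM minimum rest on about 100 UMIs in cluster 9.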
